A study of Mus musculus with 2 samples.

Results

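The genes described here encode the nuclear subunits of complexes II, III and IV of the mitochondrial respiratory chain, together with the electron carrier cytochrome c. The set of 32 genes was defined by function and matched by Ensembl identifier; the rule uses no measured value, although it was written with earlier results of these data known. It holds 4 genes of complex II, 9 of complex III, 18 of complex IV and its relatives, and 1 for cytochrome c, out of 43346 Ensembl genes in the tables. Total RNA was sequenced from whole hearts of Mus musculus, strain B6NCrl, taken on day 0 after birth. By the labels' descriptions, replicate 1 was the heart of pup 2 and replicate 2 that of pup 3 of pregnancy 1. The labels also give both the same donor identifier, so that n = 2 hearts, and every SD and ratio between pups, rests on those descriptions. They form 1 group, neonatal heart, with no treatment, no second genotype and no other age. Sex was not collected. Each library was made from 10 ng of RNA above 200 bases, and the libraries held 46151722 and 44707283 expected counts, which are reads after the authors' model had divided those that match several features. A whole heart holds several cell types, and fewer cells of a type cannot be told apart from less RNA per cell.

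Complex II, succinate dehydrogenase, passes electrons from succinate to ubiquinone and is also an enzyme of the citric acid cycle. Complex III moves electrons from ubiquinol to cytochrome c, and complex IV, cytochrome c oxidase, hands them on to oxygen, both pumping protons across the inner mitochondrial membrane. The catalytic core of complex IV and the cytochrome b of complex III are encoded by the mitochondrial chromosome, and the remaining subunits by the nucleus. Several complex IV subunits exist as alternative paralogs, with forms used widely and forms typical of heart and skeletal muscle, lung or testis. The heart relies on this chain for most of its energy after birth, and the muscle forms are known to gain on the general forms as the heart matures.

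The nuclear genes of all 3 complexes were abundant in both hearts. Of the 32 genes, 22 reached 1000 TPM (the deposited abundance, in which reads are divided by effective length and scaled to the same total in each library) in both pups, against 0.305% of the 43346 Ensembl genes. At least 1 TPM in both pups was found for 30 of the 32, against 29.6% of all genes. The members' median was 1441 TPM, where the 12812 detected genes had a median of 11.1 TPM. Together the 32 genes took 51310 TPM in replicate 1 and 53087 TPM in replicate 2, or 5.22% ± 0.126 of all TPM (SD, n = 2, as for every mean ± SD here). Because these transcripts are short, the same genes took only 2.63% and 2.75% of the reads. The sum was 3596 ± 14.7 TPM for complex II, 15884 ± 389 TPM for complex III and 32412 ± 871 TPM for complex IV. There is 1 group of 2 hearts, so no contrast between conditions exists. No p-value is given, because the smallest two-sided p that an exact sign-flip test over 2 pups can reach is 0.5.

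**Figure D1:**
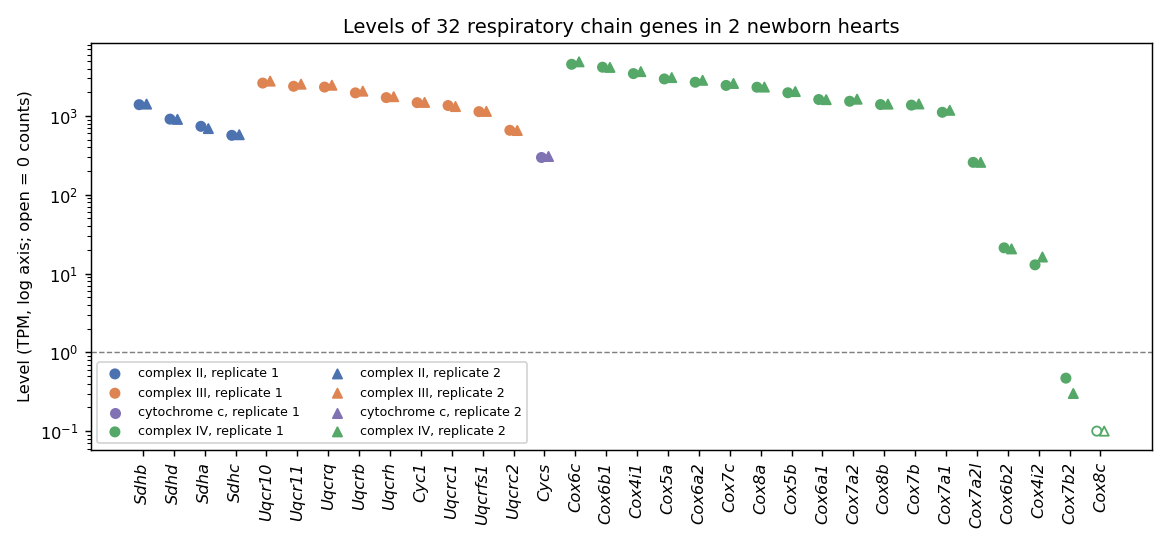
Level of each of the 32 genes in TPM (log axis), grouped by complex, with a circle for replicate 1 and a triangle for replicate 2; the dashed line marks 1 TPM and open symbols stand for 0 counts. The genes with 1000 TPM or more form a band from Cox6c (4692 TPM on average) downwards, and Cox6b2, Cox4i2, Cox7b2 and Cox8c lie far below it.

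Within complex II the iron-sulfur subunit was the most abundant and a membrane anchor the least. Sdhb, which carries the iron-sulfur clusters, was at 1390.5 TPM in the first replicate and at 1414 TPM in the second, the order in which paired values are given throughout. Sdhd, a membrane anchor that binds ubiquinone with Sdhc, stood at 911 and 904 TPM. Sdha, the flavoprotein that oxidises succinate, stood at 738 and 691 TPM. Sdhc, the other anchor, was lowest at 567 and 577 TPM. The values of neighbouring genes in this order were apart in both pups, and the range from Sdhc to Sdhb was 2.45-fold. Sdha, whose effective length is 2619 bases, drew more reads than any other gene of the complex, 73767 and 69502, so the order by TPM is not that by reads.

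Complex III had its small accessory subunits at the top and its redox and core proteins below them. Uqcr10, a small accessory subunit, stood at 2612 and 2765 TPM, and Uqcr11, another, at 2379 and 2529 TPM. Uqcrq, the ubiquinone-binding protein subunit, followed at 2325 and 2453.5 TPM. Uqcr10 lay above both of these in each pup, and the pups' values of Uqcr11 and Uqcrq overlapped. Uqcrb, which lies near the ubiquinone site, was at 1962 and 2063 TPM, and Uqcrh, the hinge protein that helps cytochrome c dock, at 1709 and 1755 TPM. Cyc1, the redox subunit cytochrome c1, came next at 1475 and 1484 TPM, followed by the core protein Uqcrc1 at 1356 and 1316 TPM. Uqcrfs1, the Rieske iron-sulfur protein, was lower at 1134 and 1141 TPM. Uqcrc2, the other core protein, was the lowest of the complex at 657 and 653 TPM. The range over the complex was 4.10-fold, although each subunit is present in equal number in the assembled complex. Across the 30 members with a mean count of 50 or more, level and effective length had a Spearman rho of -0.50 in replicate 1 and -0.49 in replicate 2. Over all detected genes it was -0.29 and -0.31. These are descriptions across genes, which share a library and a length correction.

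Complex IV was compared by subunit position, with the paralogs of a position added together, because an assembled complex holds a single form of each. The 10 positions ran from 1396 TPM for subunit 7b to 4692 TPM for subunit 6c, a 3.36-fold range around a median of 3285 TPM. Subunit 6c, a small membrane subunit encoded by Cox6c (chromosome 15, 35925886 to 35938246), stood at 4524 and 4860 TPM. Subunit 6a summed to 4294 and 4442 TPM, and subunit 6b to 4174 and 4150.1 TPM. Subunit 8 summed to 3709 and 3736 TPM and subunit 4, which binds ATP and regulates the enzyme, to 3459 and 3665 TPM. Subunit 5a, encoded by Cox5a, stood at 2949 and 3066 TPM and subunit 5b, the zinc-binding Cox5b, at 1969 and 2039 TPM. Between them lay subunit 7a at 2648 and 2809 TPM and subunit 7c, encoded by Cox7c, at 2440 and 2583 TPM. With all transcripts of each gene counted, all 10 positions thus lay within the same range of abundance as the subunits of complex III or above it. These levels include noncoding transcripts. Such transcripts held on average 59.1% of the TPM of Cox5b and 44.9% of that of Cox7b, and 21.5% of that of Uqcrq in complex III.

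**Figure D2:**
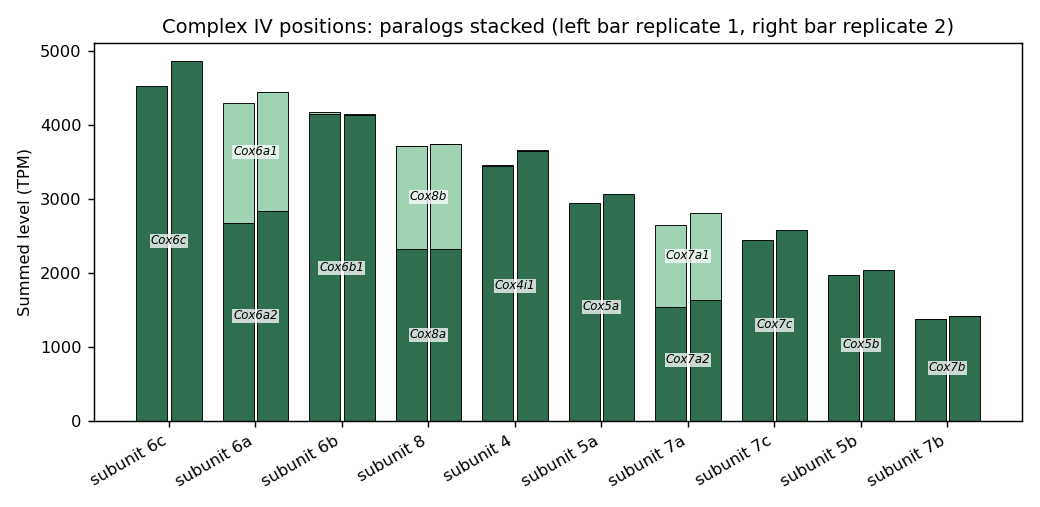
Summed TPM of the paralogs at each of the 10 nuclear-encoded positions of complex IV, in replicate 1 (left bars) and replicate 2 (right bars), with the paralogs stacked and the abundant ones named. Subunits 6a, 7a and 8 are each shared between 2 abundant paralogs, while subunits 4, 6b and 7b rest almost wholly on 1.

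Among the single genes, Cox6c was followed by Cox6b1 (4141 ± 16.6 TPM), Cox4i1 (3548 ± 144 TPM), Cox5a (3007 ± 83.1 TPM) and Cox6a2 (2755 ± 110 TPM). Over the whole order of 32 genes, the pups' values of neighbours were apart in 23 of 31 steps and overlapped in 8. The overlapping neighbours were Cox6a2 with Uqcr10, Cox7c with Uqcr11, Uqcr11 with Uqcrq, Uqcrb with Cox5b, Cox6a1 with Cox7a2, Cox8b with Sdhb, Sdhb with Cox7b, and Cox7a1 with Uqcrfs1. At the other end, Cycs stood at 307 TPM, Cox7a2l at 258 TPM, Cox6b2 at 20.9 TPM and Cox4i2 at 14.5 TPM.

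The muscle forms of subunits 6a, 7a and 8 were all present at more than 1000 TPM. On the deposited TPM, only for subunit 6a did the muscle form exceed the general one. A pair was called where both pups gave the same sign, the mean log2 ratio of TPM + 1 exceeded the difference between the pups, and the deposited credibility intervals did not overlap in either pup. Cox6a2, the muscle form of 6a (chromosome 7, 128205435 to 128206387), stood at 2677 and 2833 TPM against 1617 and 1609 TPM for Cox6a1 (chromosome 5, 115345642 to 115348981). Their log2 ratio was 0.77 ± 0.06, and Cox6a2 made up 62.3% and 63.8% of the summed TPM. Cox7a1, the muscle form of 7a (chromosome 7, 30184144 to 30186078), stood at 1113 and 1179 TPM against 1535 and 1631 TPM for Cox7a2 (chromosome 9, 79755361 to 79759878). The log2 ratio was -0.47 in both pups, and Cox7a1 made up 42.0% and 41.9% of the sum. Cox8b, the muscle form of 8 (chromosome 7, 140898945 to 140900446), stood at 1395 and 1412 TPM against 2314 and 2324 TPM for Cox8a (chromosome 19, 7215153 to 7217616). That log2 ratio was -0.72 ± 0.0081, a share of 37.6% and 37.8%. In none of these pairs did the values of the 2 forms overlap between the pups.

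These shares depend on how length is treated, since Cox7a1 and Cox8b are among the shortest transcripts of the set. Effective lengths were 265 bases for Cox7a1 and 655 bases for Cox7a2, and 263 bases for Cox8b and 446 bases for Cox8a. By reads alone, Cox7a1 held 22.7% and 22.6% of its pair, Cox8b 26.2% and 26.4%, and Cox6a2 66.2% and 67.6%. The direction was the same on both scales in all 3 pairs. Neither scale takes more than the deposited 99 bases off each length. A larger offset, which would raise the shorter form of each pair, was not tried, so these scales cannot show whether it would reverse a pair. No 31-base word was shared within any of the pairs, and the coding sequences matched at 64.6% of aligned bases for Cox6a2 and Cox6a1, 65.4% for Cox7a1 and Cox7a2 and 55.7% for Cox8b and Cox8a. The posterior SD of the count, a measure of how uncertain the division of reads was, reached at most 0.373% of the mean count in any member (Cycs), and 0 of 30 members passed 10%, against 2.12% of 13463 genes.

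**Figure D3:**
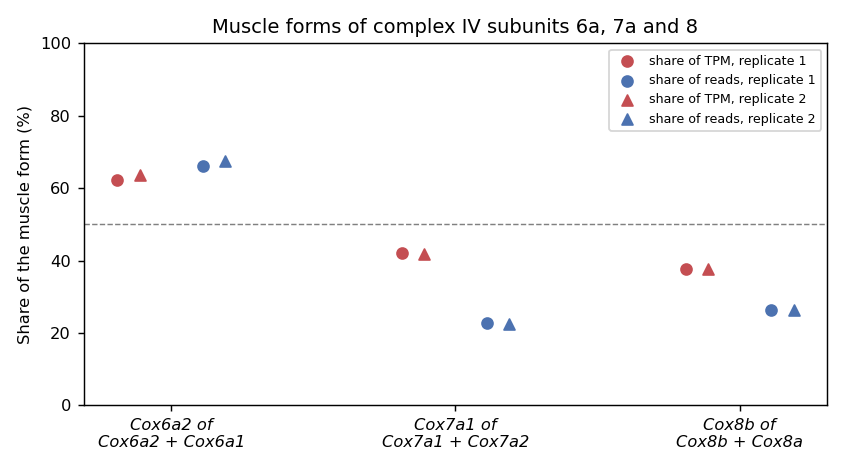
Share of the muscle form in the sum of both forms (percent) for subunits 6a, 7a and 8, by TPM (red) and by reads (blue), with circles for replicate 1 and triangles for replicate 2. Cox6a2 lies above the dashed 50% line on both scales (62.3% and 63.8% of TPM), and Cox7a1 and Cox8b lie below it on both.

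The muscle forms are also typical of skeletal muscle and brown fat, whose markers were measured beside them. All 8 heart muscle markers were detected, from Ryr2 (24.2 TPM), the cardiac calcium release channel, up to Actc1 (15157 TPM), the cardiac actin. Of 9 skeletal muscle markers 2 reached 1 TPM, Tnni2 (6.95 TPM) and Tnnt3 (2.17 TPM), with the neonatal myosin gene Myh8 next (0.935 TPM), Myh4 at 0 counts in both pups and a summed level of 10.4 and 11.3 TPM. Of 6 brown adipocyte markers, Cidea (42.4 TPM) and Ppargc1a (41.95 TPM), a mitochondrial regulator that heart muscle also expresses, were detected. Ucp1, the uncoupling protein of brown fat, had 2 and 28 counts (0.03 and 0.48 TPM) and Adipoq, the adipocyte hormone, 7 and 35 counts, while Dio2 stood at 0.530 TPM and Plin1 lowest at 0.140 TPM. The 6 brown adipocyte markers summed to 88.4 and 83.1 TPM, nearly all of it from Cidea and Ppargc1a. Of the others, all under 1 TPM, Ucp1, Adipoq and Plin1 were higher in replicate 2 and Dio2 was lower. The part of either tissue in the levels of the muscle forms was not tested.

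The promoters of 4 of these genes are printed to let the forms be compared, each as 250 bases before to 50 after the RefSeq start on GRCm38.p6. The motifs searched, on both strands, were GCGCATGCG for NRF1, CCGGAAG for ETS factors, AAGGTCA for ERR, AAGATGG for YY1, CTANNNNTA for MEF2, CAGCTG for an E-box and TATAAA for a TATA box. N stands for any base, so the pattern used for MEF2 is loose. Matches are in capitals.
Cox7a1 (chr7:30183921-30184220, plus strand): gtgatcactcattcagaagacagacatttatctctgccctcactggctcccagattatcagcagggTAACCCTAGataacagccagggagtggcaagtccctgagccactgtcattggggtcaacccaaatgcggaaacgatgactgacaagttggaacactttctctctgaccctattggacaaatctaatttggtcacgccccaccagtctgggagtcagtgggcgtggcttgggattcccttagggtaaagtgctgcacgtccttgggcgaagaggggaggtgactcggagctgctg
Cox7a2 (chr9:79759804-79760103, minus strand): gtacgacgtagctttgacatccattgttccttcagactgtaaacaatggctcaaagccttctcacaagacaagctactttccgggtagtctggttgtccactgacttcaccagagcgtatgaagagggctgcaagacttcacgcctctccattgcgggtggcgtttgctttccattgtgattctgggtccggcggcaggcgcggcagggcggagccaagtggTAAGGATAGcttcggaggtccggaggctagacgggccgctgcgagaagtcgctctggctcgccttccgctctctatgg
Cox8b (chr7:140900397-140900696, minus strand): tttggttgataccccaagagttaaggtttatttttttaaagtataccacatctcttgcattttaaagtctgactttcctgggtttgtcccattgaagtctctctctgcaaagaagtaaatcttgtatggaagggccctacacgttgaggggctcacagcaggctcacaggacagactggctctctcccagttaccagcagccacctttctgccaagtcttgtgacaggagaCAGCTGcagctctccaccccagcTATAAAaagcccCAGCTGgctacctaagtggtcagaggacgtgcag
Cox8a (chr19:7217567-7217866, minus strand): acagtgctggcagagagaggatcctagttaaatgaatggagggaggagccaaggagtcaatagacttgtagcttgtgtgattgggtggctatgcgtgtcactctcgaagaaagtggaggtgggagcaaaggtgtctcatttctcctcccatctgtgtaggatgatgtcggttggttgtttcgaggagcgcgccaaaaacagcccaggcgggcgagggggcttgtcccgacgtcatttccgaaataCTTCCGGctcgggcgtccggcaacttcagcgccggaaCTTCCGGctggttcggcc
A match to the loose pattern CTANNNNTA lay in the promoters of both Cox7a1 (TAACCCTAG) and Cox7a2 (TAAGGATAG). Both matches hold C or G among the free middle bases. A stricter MEF2 pattern with only A or T there was not searched, and neither match would meet it. Cox8b held CAGCTG at 2 places, at 19 bases before and 16 bases after the start, and was the only 1 of 22 members searched with that word, which 16.3% of all 32851 promoters and 15.4% of those of detected genes hold. Its TATAAA began 4 bases after the annotated start. Cox8a, the general form, held CTTCCGG, the reverse of the ETS motif, at 5 bases before and 32 bases after the start. A match describes letters in the window and not a bound site.

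Promoters were found for 22 of the 32 members, and the other 10 (Cox4i1, Cox4i2, Cox6a2, Cox6c, Cox8c, Cyc1, Uqcrb, Uqcrc2, Uqcrq and Sdhc) are named only. The NRF1 motif, bound by a known activator of respiratory chain genes, was in 4 of 22 (Cox6a1, Cycs, Uqcr11 and Uqcrc1). It was in 1.75% of all promoters and in 3.63% of those of detected genes. The ETS motif was in 7 of 22 (Cox6a1, Cox6b1, Cox8a, Sdhb, Sdhd, Uqcr11 and Uqcrh), or 31.8%, against 8.86% of all promoters and 17.7% of those of detected genes. Matches to the loose pattern used for MEF2 were in 5 of 22, or 22.7%, against 21.04% of all promoters and 14.97% of those of detected genes. Every such match in the members held C or G among the free middle bases. An ERR match was in 1 of 22 (Sdhd), against 4.72% and 3.21%, and a YY1 match in 1 of 22 (Cox7c), against 6.34% and 7.07%. TATAAA was in 2 of 22, Cox7b2 and Cox8b, against 13.6% and 7.22%. The NRF1 word and its reverse overlap by 8 bases where they occur together, and were counted once per promoter. Cycs and Uqcr11 show the NRF1 word, beside an ETS word in Uqcr11.
Cycs (chr6:50566520-50566819, minus strand): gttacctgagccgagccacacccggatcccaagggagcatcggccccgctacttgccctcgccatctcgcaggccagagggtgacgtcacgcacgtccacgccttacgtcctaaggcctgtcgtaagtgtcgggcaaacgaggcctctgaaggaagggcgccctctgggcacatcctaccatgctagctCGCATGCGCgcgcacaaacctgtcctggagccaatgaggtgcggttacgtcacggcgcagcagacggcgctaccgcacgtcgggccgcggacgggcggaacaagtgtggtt
Uqcr11 (chr10:80406772-80407071, minus strand): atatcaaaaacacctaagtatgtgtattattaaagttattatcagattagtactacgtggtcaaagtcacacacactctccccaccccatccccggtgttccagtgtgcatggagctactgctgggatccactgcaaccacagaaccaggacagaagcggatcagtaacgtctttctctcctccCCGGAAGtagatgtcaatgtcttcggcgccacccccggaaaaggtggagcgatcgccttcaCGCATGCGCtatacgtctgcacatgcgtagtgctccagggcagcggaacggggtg

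Where 1 form is known from another organ, the general form accounted for nearly all of the TPM. Cox4i1, the general form of subunit 4 (chromosome 8, 120668222 to 120674207), stood at 3446 and 3649 TPM. Cox4i2, the lung form, which alters the response of the enzyme to oxygen (chromosome 2, 152754173 to 152765037), stood at 12.9 and 16.2 TPM, so the ratio of the means was 244. Cox6b1, which helps join complex IV monomers, was 199-fold above the testis form Cox6b2, at 21.2 and 20.5 TPM. Cox7b stood at 1372 and 1419 TPM, while its testis relative Cox7b2 had 8 and 5 counts (0.47 and 0.30 TPM). Cox8c, the testis form of subunit 8, had 0 counts in both pups, below a floor of 3 counts per library, which puts Cox8a at least 11098-fold and 11026-fold higher. Cyct, the testis cytochrome c, was also at 0 counts, and Cycs was at least 2117-fold and 2199-fold higher. Floors cover counting error only. All 6 testis germ cell markers were under 1 TPM, led by Prm1 (2 and 1 counts) and Tnp1 (1 and 0 counts), and 4 of them were at 0 counts in both pups.

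Cox7a2l, a relative of subunit 7a known for a role in supercomplexes of complexes III and IV, stood at 258 TPM in both pups. Cox7a2 was 6.15-fold above it, with a log2 ratio of 2.61 ± 0.06. Whether the Cox7a2l protein of this strain joins those complexes was not measured. Over the 9 pairs compared, the first-named form was higher in 7 and the second in 2 (Cox7a2 over Cox7a1 and Cox8a over Cox8b), and none was left without a call.

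Cytochrome c was the gene whose level depended most on which annotated copy received the reads. Cycs (chromosome 6, 50562563 to 50566538), the mobile carrier between complexes III and IV, held 33547 and 35081 counts over an effective length of 2937 bases, or 299 and 314 TPM. Gm10053 (chromosome 19, 24875686 to 24876631), annotated as protein coding, shares 96.6% of its 31-base words with Cycs. It held 39211 and 39991 counts, 117% and 114% of those of Cycs, and was listed at 1209 and 1246 TPM. Gm10108 (chromosome 5, 13121448 to 13121766), a processed pseudogene that shares 87.9% of its words, held 16246 and 17067 counts and was listed at 1944 and 2064 TPM. Cycs thus held 37.7% and 38.1% of the reads assigned to itself and its 4 copies. With all of these reads placed on Cycs, its level would be 794 and 825 TPM, 2.64-fold higher, which would lift it above Sdha and leave it below Sdhd. The posterior SD of the counts was at most 0.866% for Gm10108 and 0.492% for Gm10053, so the authors' model divided the reads with little uncertainty. Which of these loci was transcribed was not tested.

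Cox7c, a small membrane subunit (chromosome 13, 86044816 to 86046904), had a similar copy. Gm12338, a processed pseudogene (chromosome 11, 75599763 to 75599954), shares 100% of its words with Cox7c and held 9894 and 10584 counts, 25.3% and 25.9% of those of Cox7c. Over its short annotated span it was listed at 2788 and 3014 TPM, above Cox7c itself at 2440 and 2583 TPM. Placing the reads of both Cox7c copies on Cox7c would raise it 1.27-fold, to 3185 ± 144 TPM. Across the 32 genes, 10 annotated pseudogenes of 6 parents shared at least 50% of their words with a member, and 12 genes of 7 parents did so when every biotype was included. Apart from the copies of Cycs and Cox7c, these held little: Cox6c2, a copy of Cox6c, had 309 and 294 counts, 0.439% and 0.394% of its parent, and Gm11273, a copy of Cox5b annotated as protein coding, 227 and 211 counts. Gm10012, the other copy of Cox7c, had 410 and 565 counts.

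**Figure D4:**
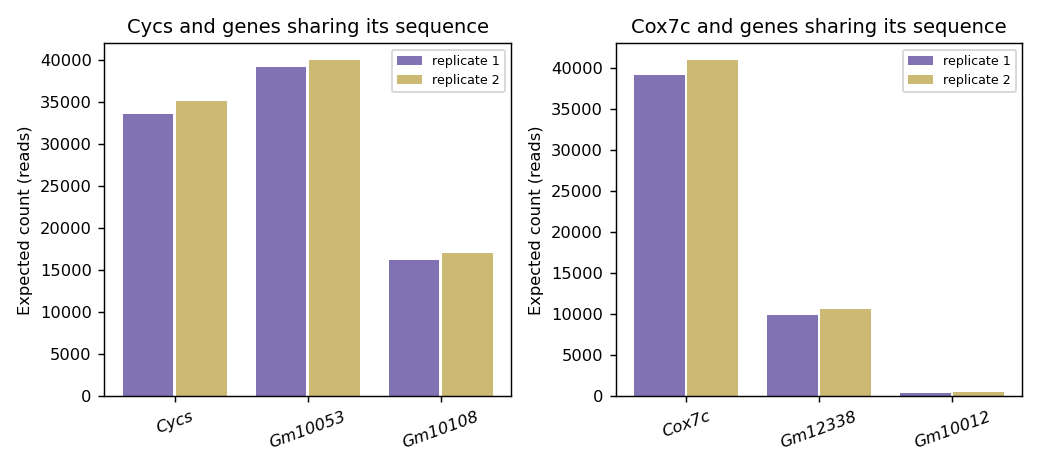
Expected counts of Cycs (left) and Cox7c (right) beside the genes that share at least 50% of their sequence words with them and hold 100 or more counts, in both replicates. Gm10053 holds more reads than Cycs in both pups (39211 against 33547 in replicate 1), and Gm12338 holds about 25.3% of the count of Cox7c.

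A single transcript carried most of each gene in nearly all members. The leading transcript was the same in both pups for all 30 detected members, and it held 90% or more of the gene's TPM in 23. For 10 of the 30, among them Cox5a, Cox6a2, Cox7a1 and Cox8b, a single transcript was annotated, which fixes its share. Cox5b was the 1 member whose lead by TPM is not coding: Cox5b-205, a processed transcript of 362 bases, took 57.95% and 58.3% of TPM. By reads, the coding Cox5b-204 of 865 bases led instead with 63.0% and 62.0%. Cox7b was divided between the coding Cox7b-201 (55.2% and 55.1% of TPM) and Cox7b-203, a retained intron form of 526 bases (43.1% and 42.4% of TPM, 27.0% and 26.6% of reads). Uqcrq-204, a processed transcript, took 21.4% and 21.6% of the TPM of Uqcrq beside 73.7% and 73.8% for the coding Uqcrq-203.

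Sdhc was divided among 3 coding transcripts. Sdhc-201, of 815 bases, took 67.0% and 67.8% of TPM, and Sdhc-203, of 298 bases, 21.4% and 19.9%. Sdhc-202, of 3171 bases, took 11.5% and 12.4% of TPM but 40.4% and 42.0% of reads, since each read weighs less in a longer transcript. Cox6b2, with 321 and 313 counts over 9 annotated transcripts, had Cox6b2-201 in the lead at 35.9% and 39.5%.

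The sources used here do not give whether counting used strand, so reads from genes overlapping on the opposite strand cannot be told apart. Exons of 6 members overlap such a gene: Emc8 with Cox4i1, Gm26631 with Cox5a, Itgad with Cox6a2, Vps13b with Cox6c, Pdzd9 with Uqcrc2 and Gm10767 with Uqcrb. Emc8 stood at 101.6 and 96.0 TPM and the others at 3.61 TPM or less, beside 655 TPM or more for the members they overlap.

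Genes that assemble these complexes were present throughout, with medians far below that of the subunits. The ranges overlapped, since Cox17, Cox20 and Uqcc2 lay above Cycs (307 TPM), Cox7a2l (258 TPM), Cox6b2 and Cox4i2. The 25 complex IV assembly genes had a median of 35.4 TPM, and each of them was detected. Cox17, a copper chaperone for the enzyme, led at 457 ± 24.2 TPM. It was followed by Cox20 (408 ± 17.8 TPM), which stabilises the newly made copper subunit, and Cox14 (265 ± 8.04 TPM), which binds the newly made catalytic subunit. Pet117 was lowest at 2.10 ± 0.163 TPM on 44.9 and 49.5 counts, with shared reads. All 6 complex III assembly genes were detected, from Bcs1l (13.8 TPM), which inserts the Rieske protein, up to Uqcc3 (72.6 TPM), Uqcc1 (120 TPM) and Uqcc2 (324 TPM), which act on cytochrome b. All 4 complex II assembly genes were detected, led by Sdhaf4 (104 TPM), followed by Sdhaf2 (22.4 TPM), which helps attach the flavin to Sdha, and Sdhaf1 (16.4 TPM), with Sdhaf3 lowest (3.98 TPM). Hccs, which attaches haem to cytochrome c, stood at 57.3 and 55.3 TPM.

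Proteins known to bind complex IV covered a wide range. Ndufa4, now counted among its subunits, stood at 2681 and 2798 TPM, within the range of the nuclear-encoded positions of complex IV given above. Higd2a (384 TPM) and Higd1a (100.1 TPM), which help supercomplexes form, and Ndufa4l2 (32.7 TPM), a hypoxia-responsive relative of Ndufa4, were lower. Of the mitochondrially encoded partners, the catalytic mt-Co1 stood at 10419 and 10744 TPM and mt-Cytb, the cytochrome b of complex III, at 8461 and 8837 TPM, both above every nuclear subunit. The levels of mt-Co2 (10606 TPM) and mt-Co3 (7266 TPM, the lowest of the 4) are uncertain, since the posterior SD of their counts was 21.6% or more of the mean.

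The pups' hearts were close for these genes. Of the 30 members with a mean count of 50 or more, 1 differed by 1.2-fold or more between the pups, against 15.2% of 13463 genes, and 0 differed by 2-fold or more, against 0.498%. With 1 heart on each side, these log2 ratios of scaled counts (replicate 2 minus replicate 1) have no replicate check and no p-value. The 13463 genes were not matched to the members by read count, and ratios spread more where reads are few. Apart from Cox4i2 and Cox6b2, the 30 members held 9537 counts or more in each pup. The part of read depth in the lower share was not tested. The member past 1.2-fold was Cox4i2, with 309 and 384 counts and a log2 ratio of 0.34. Among the rest, ratios ran from -0.05 for Sdha to 0.11 for Cox6c.

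Markers of organs and cells in which Cox4i2 is known were compared beside it, from 2 lists chosen after the data were seen. Of 8 lung epithelial markers, Scgb3a2, a secretoglobin of the airways, was listed at 2.96 TPM in the first heart but 563 TPM in the second. Scgb1a1, another, stood at 0.97 and 74.3 TPM. Sftpc, the surfactant protein of alveolar cells, went the other way at 25.5 and 0.34 TPM, as did Ager (1.47 and 0.65 TPM), and Nkx2-1 was lowest with 3 counts in each pup. The list summed to 32.8 and 640.3 TPM, with 1 of 8 at 1 TPM or more in both pups. The 8 pericyte markers were all detected and summed to 82.4 and 77.2 TPM, led by Kcnj8 (17.4 TPM), Rgs5 (16.4 TPM) and Abcc9 (13.96 TPM), with Vtn lowest (2.51 TPM), and none of them differed by 1.2-fold or more. The part of lung tissue in the level of Cox4i2 was not tested.

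Small differences ran mostly in 1 direction. Of the 30 members, 26 were higher in replicate 2, against 49.6% of all 13463 genes, with a median log2 ratio of 0.06 against 0.00 for all genes. The 4 that were lower were Sdha (-0.05), Uqcrc1 (-0.03), Uqcrc2 (-0.02) and Cox6b2 (-0.01). The difference between the libraries ran with gene length. Over all genes, the median log2 ratio was 0.06 in the shortest of 10 equal classes of effective length and -0.07 in the longest, with a Spearman rho of -0.23 between ratio and length. The members are short, with a median effective length of 575 bases against 2325 for all genes, and 20 of the 30 lay in the shortest class. After each ratio was centred on the median of its class, 14 members were higher in replicate 2 and 16 lower, against 50% of all genes higher, and the members' median log2 ratio was 0.00. That centring was added after the data were seen.

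**Figure D5:**
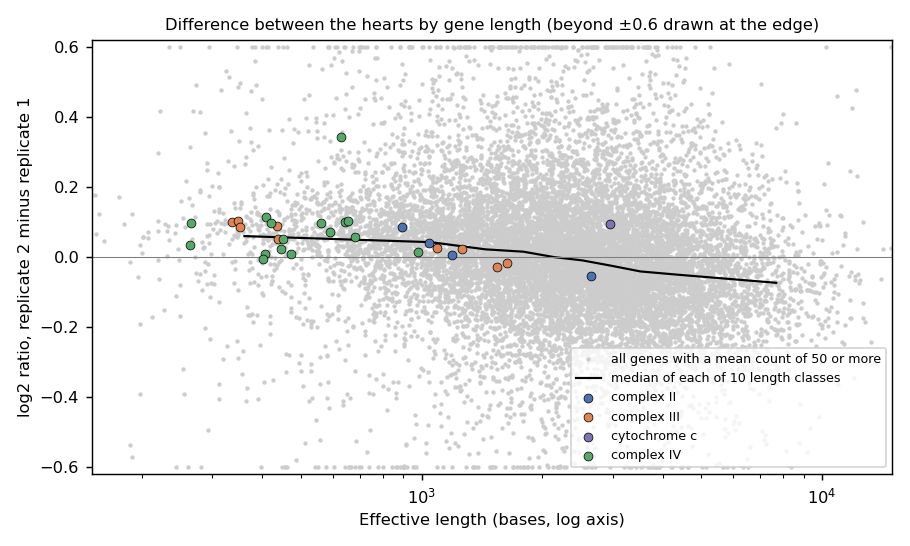
Log2 ratio of scaled counts, replicate 2 minus replicate 1, against effective length in bases (log axis), for 13463 genes (grey), the median of each of 10 classes of length (black line) and the 30 members (coloured by complex). Most members lie at short lengths and close to the line, while Cox4i2 (0.34) and, at a long effective length, Cycs (0.10) lie above it.

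Markers of other cell types also differed between the hearts. All 6 erythroid markers differed by 1.2-fold or more, against 15.2% of 13463 genes, and were lower in replicate 2. Hba-a2 stood at 6299 and 3996 TPM, Hbb-bs at 3480 and 2278 TPM, Hba-a1 at 2513 and 1613 TPM, and Slc4a1, the lowest, at 2.38 and 0.97 TPM, a log2 ratio of -1.27. Of the heart muscle markers, Actc1 stood at 16412 and 13902 TPM, Myl2 at 11818 and 11724 TPM and Tnnt2 at 10667 and 9972 TPM. Of the 8, 2 differed by 1.2-fold or more, beside the same 15.2%, and both were lower in replicate 2. They were Myh7, the beta myosin heavy chain, at 607 and 382 TPM, and Myh6, the alpha chain, at 3871 and 3104 TPM. The median log2 ratio of the list was -0.16. These ratios were not centred on length. Myh6 and Myh7, at 5478 and 6005 bases in replicate 1, lie in the longest class, whose median was -0.07. The part of length in their ratios was not tested. Of the assembly genes, Coa4 (14.3 and 17.2 TPM) and Taco1 (13.2 and 10.7 TPM) differed by 1.2-fold or more, in opposite directions. The part of cell makeup in the members' ratios was not tested.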

How the data were processed

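Each library came from the RNA of a single heart. The authors deposited a gene and a transcript table per library, with mm10 and GENCODE M4 named in the read-me and RSEM's column names; aligner and versions: not given in the sources used here. The deposited expected counts estimate the reads of each feature. TPM, per the file headers, gives counts per effective length (length minus 99 bases) scaled to a fixed total. The deposited posterior SD, the credibility bounds of TPM (a signal in TPM units, of unstated width) and the percent of a gene's TPM per transcript were used as given.

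Symbols, biotypes and coordinates came from GENCODE M21 on the same build and promoters from RefSeq GRCm38.p6. TMM scaling factors (edgeR 4.0.16, R 4.3.3) were estimated from rounded expected counts and applied to the unrounded ones. Ratios between pups used a prior count of 2 and a mean count of 50 or more. Copies shared at least 50% of 31-base words. The named genes were all members, both genes of each pair, the 3 highest and the lowest gene of each list, any list gene past a log2 ratio of 1, up to 5 pseudogene copies, and leading transcripts. Gm10053, Gm11273, Uqcrq-204, Coa4, Taco1, Ucp1, Adipoq, Myh6, Myh7 and the overlapping genes were named after their values were seen. Members and lists were chosen with earlier results of these data known. DESeq2 1.42.0 gave alternative size factors, and Python 3.11.15 with scipy 1.17.1, numpy 2.4.6 and pandas 2.3.3 handled the tables.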

Additional observations from a re-analysis of the deposited data

How the results depend on the processing

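Of the alternative values for sums, counts and pairs, 12 moved past their limit and 110 did not. Of those for the levels of single genes, 67 moved and 93 did not. No pair changed direction, although no alternative took more than 99 bases off each length. For pairs that limit covers direction and call only, not size. Sums changed with the scale. Without mitochondrial genes and their nuclear copies in the total they were 4423 TPM for complex II, 19537 for complex III, 39865 for complex IV and 64203 for all 32 genes. With full in place of effective length they were 3799, 15080.0, 30550.2 and 49768.5 TPM. Posterior means gave 3545 TPM for complex II. Without a filter on counts 2 members, not 1, differed by 1.2-fold or more, through Cox7b2 with 8 and 5 counts. Centred on genes of like length, 14 members were higher in replicate 2 in place of 26, and the majority, 16, were then lower. At 75% of words 4 pseudogene copies were counted in place of 10. With each replicate left out in turn, the sum over all 32 genes was 51310 to 53087 TPM and all 9 pairs kept their direction. The log2 ratio of Cox7a1 to Cox7a2 was -1.77 and that of Cox8b to Cox8a -1.49 on reads not divided by length. Adding the TPM of the pseudogene copies to Cycs took its log2 ratio to Cyct from 8.27 to 11.17. That sum takes each copy at its own short length and leaves out Gm10053. It is therefore not comparable with the 2.64-fold rise, for which the reads of all 4 copies were placed at the length of Cycs. For 20 members the deposited TPM lay above its own credibility interval in both pups, so those intervals are only a rough guide. No paired analysis was possible because there is 1 group, and its replicate numbers name different pups. With 2 littermates, the spread given here may be partly technical.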
